A study of Mus musculus with 6 samples.

Results

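The Notch genes examined here were 4 receptors (Notch1, Notch2, Notch3 and Notch4), 2 ligands (Jag1 and Dll4) and 4 target genes of the Hes and Hey family (Hes1, Hey1, Hey2 and Heyl). They were taken by name, through their Ensembl identifiers, and all 10 were found among the 37991 gene rows of the count files. The cells carried Nestin-GFP, a fluorescent reporter of Nestin regulatory activity that marks pericytes among other cells. They had been isolated by sorting from skin dermis, with the subcutaneous white fat attached to it, of pups 3 days old. Libraries held 11912469 to 18792939 reads counted in genes. The 3 control mice carried Nestin-GFP and, as labelled, neither Nestin-Cre nor a changed Pdgfra allele. The 3 mutant mice carried Nestin-GFP, Nestin-Cre and 1 Pdgfra allele labelled "[S]D842V", a constitutively active receptor. Nestin-Cre acts only where, and after, Nestin regulatory sequence has been active, so the mutant receptor is limited to those cells and their descendants. Since no control carried Nestin-Cre alone, an effect of the recombinase and of the receptor cannot be told apart.

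As a check of the labels, Pdgfra stood at 857.3, 820.0 and 855.6 CPM (TMM-scaled counts relative to library size) in controls and at 369.0, 345.3 and 358.6 CPM in mutants, lower in each mutant library (log2 fold change -1.24, edgeR adjusted p = 2.75e-06). Counts do not tell the normal from the mutant allele, so this level does not check the genotype. Nes, the gene behind the reporter, averaged 74.4 CPM in controls and 84.3 CPM in mutants (edgeR adjusted p = 0.28), and Pdgfrb, a pericyte receptor, averaged 238.7 and 228.7 CPM (0.641). The labels give white adipose tissue as the cell type and the series title speaks of pericytes. No marker gene of pericytes, fibroblasts, endothelium or adipocytes was at 0 in all libraries. The same held for every other marker list, so this does not tell the cell types apart. Antisense genes overlap exons of Notch1, Notch3 and Dll4 in the GENCODE M21 annotation, and without a stated strand setting reads of antisense partners cannot be told apart.

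Notch receptors are cut from the cell surface when a ligand on a neighbouring cell binds and pulls on them, by an ADAM protease and then by gamma-secretase. The released intracellular domain enters the nucleus, joins the DNA-binding protein RBPJ and a Mastermind coactivator, and turns on genes that include the Hes and Hey repressors. In small vessels, Notch3 is the typical receptor of pericytes and smooth muscle, Notch1 and Notch4 act in endothelium, endothelial Jag1 signals to mural cells, and Dll4 marks endothelial tip and arterial cells.

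Hes1, the most studied Hes repressor, was lower in mutant cells, together with the ligand gene Jag1 and the arterial repressor gene Hey2, while the receptor gene Notch2 was higher. Hes1 fell to 0.598 of its control level, Jag1 to 0.796 and Hey2 to 0.785, and Notch2 rose 1.26-fold. Of the 10 genes, 1 rose and 3 fell at an adjusted p under 0.05, where 8.63% of the 15035 tested genes were called higher and 9.13% were called lower, 17.8% in either direction. The remaining 6 (Notch1, Notch3, Notch4, Dll4, Hey1 and Heyl) did not pass. The median absolute log2 fold change was 0.30 over these 10 genes and 0.20 over all genes tested, and the signed medians were 0.09 and 0.01. Every mutant library was above every control for 2 of the 10 genes (Notch2 and Notch3), as for 19.2% of all tested genes, and below every control for 3 (Jag1, Hes1 and Hey2), as for 18.6%.

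**Figure D1:**
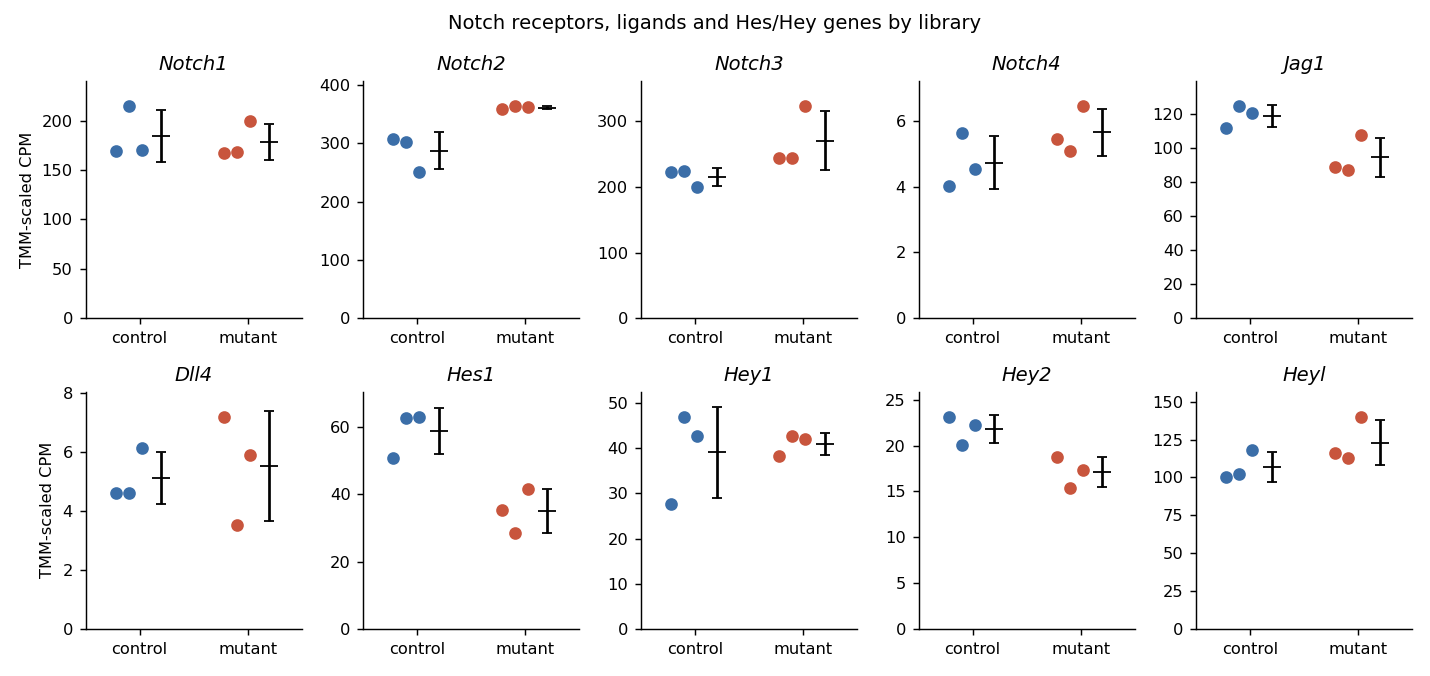
TMM-scaled level (CPM, vertical axes from 0) of the 10 Notch genes in 3 control (blue) and 3 mutant (red) libraries, placed from left to right as replicates 1 to 3, with the group mean and SD in black. The 2 groups are apart for Notch2, Notch3, Jag1, Hes1 and Hey2, and they overlap for the other 5 genes.

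The upstream promoter sequences of the called genes Notch2, Jag1 and Hey2 are shown because both RBPJ, the DNA-binding partner of Notch, and the Hes and Hey repressors act on short DNA words near gene starts. RefSeq windows on GRCm38.p6 were matched for 7 of the 10 genes (Notch1, Notch2, Notch3, Notch4, Jag1, Dll4 and Hey2). Hes1, which was also called, Hey1 and Heyl had no window, so Hey2 was the only Hes or Hey gene searched. In the 250 bases before the start, on either strand, capitals mark GTGGGAA or its complement TTCCCAC, a high-affinity RBPJ word, and CACGCG or its complement CGCGTG, a word bound by Hes and Hey proteins. Positions count back from the base before the gene start.
Hey2 (chr10:30842784-30843033, minus strand): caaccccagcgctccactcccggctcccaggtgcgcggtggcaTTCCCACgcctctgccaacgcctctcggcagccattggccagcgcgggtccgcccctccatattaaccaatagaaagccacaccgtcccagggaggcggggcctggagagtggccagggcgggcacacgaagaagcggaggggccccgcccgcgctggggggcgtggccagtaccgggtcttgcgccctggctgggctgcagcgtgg
Jag1 (chr2:137116521-137116770, minus strand): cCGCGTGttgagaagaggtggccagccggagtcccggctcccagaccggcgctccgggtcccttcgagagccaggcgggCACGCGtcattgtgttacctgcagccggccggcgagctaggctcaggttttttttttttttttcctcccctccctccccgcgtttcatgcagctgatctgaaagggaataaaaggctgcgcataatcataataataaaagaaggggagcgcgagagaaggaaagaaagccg
Notch2 (chr3:98013288-98013537, plus strand): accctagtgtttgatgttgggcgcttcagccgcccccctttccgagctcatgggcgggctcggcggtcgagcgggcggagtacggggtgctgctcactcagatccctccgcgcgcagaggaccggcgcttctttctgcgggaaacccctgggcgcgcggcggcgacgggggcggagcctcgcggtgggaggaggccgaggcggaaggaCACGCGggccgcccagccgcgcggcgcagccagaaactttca

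Hey2 was the only 1 of the 7 windows with the RBPJ word, as TTCCCAC at bases 207 to 201 upstream. That word was found in 5.42% of 32851 promoter windows of the same length. Its inner part TGGGAA, which overlaps the longer word, was found in 21.6% of windows and, of the 7, again only in Hey2. CACGCG was found in Jag1 at bases 249 to 244 and 171 to 166, in Notch2 at bases 42 to 37 and in Dll4 at bases 195 to 190, against 7.62% of all windows. The palindromic word CACGTG was in none of the 7 windows and in 6.02% of all. CACNAG, a looser word of Hes proteins, was found in Notch1, Notch2, Notch3 and Dll4 and in 36.7% of all windows. GC content was 57.2% in Jag1, 72% in Notch2, 65.6% in Dll4, 71.6% in Hey2 and 52.4% in the median window. A match describes letters, and no binding was measured.

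Among the receptors, Notch2, which is broadly expressed in mesenchyme, was the only 1 called. Notch2 (ENSMUSG00000027878) had 308.0, 302.9 and 251.2 CPM in control replicates 1 to 3 and 357.8, 363.0 and 361.4 CPM in the mutant ones. All mutant libraries lay above all controls, and their coefficient of variation was 0.742%, against 11% among controls. The mutant value is below the counting error of 5331 to 6846 reads per library, so it does not measure the variation between mice. In the edgeR fit the log2 fold change was 0.33, with a 95% interval from 0.14 to 0.52 and an adjusted p of 0.0224. The call was lost without control replicate 3 (adjusted p = 0.0773), whose Notch2 value was the lowest, and without mutant replicate 1, 2 or 3 (0.0550, 0.0504 and 0.0680), while the log2 fold change stayed between 0.24 and 0.37.

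Notch3 (ENSMUSG00000038146), the receptor of mural cells, showed the same estimate with more spread. It stood at 223.1, 223.9 and 199.7 CPM in controls and at 244.9, 244.2 and 322.9 CPM in mutants. The groups did not overlap, and mutant replicate 3 was far above the other two mutant libraries. The estimate was 0.33 on the log2 scale (95% interval 0.09 to 0.57, edgeR adjusted p = 0.0601), so Notch3 was not called. It was called by DESeq2 (adjusted p = 0.0296), by edgeR with no filter (0.00272) and without mutant replicate 2 (0.0417). Without mutant replicate 3 the estimate was 0.18 (adjusted p = 0.228).

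Notch1 (ENSMUSG00000026923) had 169.0, 214.4 and 170.0 CPM in controls and 167.4, 168.5 and 199.9 CPM in mutants. In each group, 1 library was higher than the other two, and the ranges nearly coincided. Its interval on the log2 scale ran from -0.28 to 0.19 (adjusted p = 0.807), and leaving out control replicate 2 turned the estimate from -0.05 to 0.07. Notch4 (ENSMUSG00000015468), an endothelial receptor, was the least abundant, with 63 to 71 reads per control library and 78 to 122 per mutant library. Those reads correspond to 4.03, 5.62 and 4.55 CPM in controls and 5.44, 5.07 and 6.44 CPM in mutants. Its interval ran from -0.14 to 0.67 on the log2 scale (edgeR adjusted p = 0.345).

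The ligand gene Jag1 (ENSMUSG00000027276), which encodes a transmembrane ligand that mural and endothelial cells display to their neighbours, fell. Its level was 111.6, 124.5 and 120.7 CPM in controls and 88.9, 86.9 and 107.9 CPM in mutants. Each mutant library was below each control, with mutant replicate 3 close to control replicate 1. edgeR put the change at -0.33 on the log2 scale (95% interval -0.53 to -0.13, adjusted p = 0.0276). The call was lost without control replicate 2 or 3 (adjusted p = 0.0962 and 0.0820) and without mutant replicate 1 or 2 (0.0806 and 0.0861), with estimates from -0.44 to -0.27 over the 6 omissions.

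Dll4 (ENSMUSG00000027314), the ligand of angiogenic and arterial endothelium, was near the low end, with 54 to 112 reads per library. It had 4.61, 4.62 and 6.15 CPM in controls and 7.18, 3.51 and 5.91 CPM in mutants. Mutant replicate 1 held the highest and mutant replicate 2 the lowest value of all 6 libraries. The log2 estimate of 0.11 had an interval from -0.43 to 0.65 (edgeR adjusted p = 0.799), and it was -0.12 without mutant replicate 1.

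Hes1 (ENSMUSG00000022528), which encodes a repressor that responds to Notch and to other signals, had the largest change of the 10 genes. Control libraries held 50.8, 62.6 and 62.9 CPM, and mutant libraries held 35.2, 28.4 and 41.5 CPM. The highest mutant library was below the lowest control library. The edgeR estimate was -0.74 on the log2 scale (SE 0.14, 95% interval -1.05 to -0.43, adjusted p = 0.00786), a change of -40.2%. Hes1 was called in all 15 alternative settings, with estimates between -0.88 and -0.61 and adjusted p-values up to 0.0426.

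The Hey genes did not move as a block. Hey2 (ENSMUSG00000019789), a repressor of arterial endothelium and smooth muscle, had 23.1, 20.1 and 22.2 CPM in controls and 18.7, 15.4 and 17.3 CPM in mutants. The groups were separate, by a small margin between control replicate 2 and mutant replicate 1. Its log2 fold change was -0.35 (95% interval -0.59 to -0.11) and its edgeR adjusted p of 0.0446 lay just under the threshold. The call was lost with upper-quartile scaling (adjusted p = 0.0637), with DESeq2 (0.0727) and without any 1 library except mutant replicate 1 (up to 0.127). Over these settings the direction did not turn.

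Hey1 (ENSMUSG00000040289), expressed in endothelium and mesenchyme, had 27.7, 46.9 and 42.8 CPM in controls and 38.2, 42.7 and 42.1 CPM in mutants. The low value of control replicate 1 set the spread among controls, 25.9% as a coefficient of variation against 5.98% among mutants. The interval was -0.35 to 0.49 on the log2 scale (edgeR adjusted p = 0.819), and the estimate moved from 0.07 to -0.14 without control replicate 1. Control replicate 1 was also the lowest library for Fos, an immediate early gene that rises during tissue dissociation, with 948.8 CPM against 1797.8 and 1791.4 CPM in the other two controls and 2331.5 to 2748.9 CPM in mutants. Of the same list of dissociation genes, the heat shock genes Hspa1a (133.0, 77.3 and 89.1 CPM in controls, 20.7 to 31.5 CPM in mutants) and Hspa1b (168.9, 94.1 and 117.3 CPM, 21.3 to 26.2 CPM) were highest in control replicate 1 and called lower in mutants. They are near-identical copies whose counts are uncertain, and were chosen after their values were seen. The part of these differences in the Hey1 value was not tested. Heyl (ENSMUSG00000032744), the Hey gene of mural cells, had 100.6, 102.0 and 118.2 CPM in controls and 116.2, 113.0 and 139.8 CPM in mutants. Control replicate 3 lay inside the mutant range. The estimate of 0.20 (95% interval -0.01 to 0.41) did not pass (edgeR adjusted p = 0.168), and it did not pass in any of the 15 alternatives (adjusted p from 0.0769 to 0.554).

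**Figure D2:**
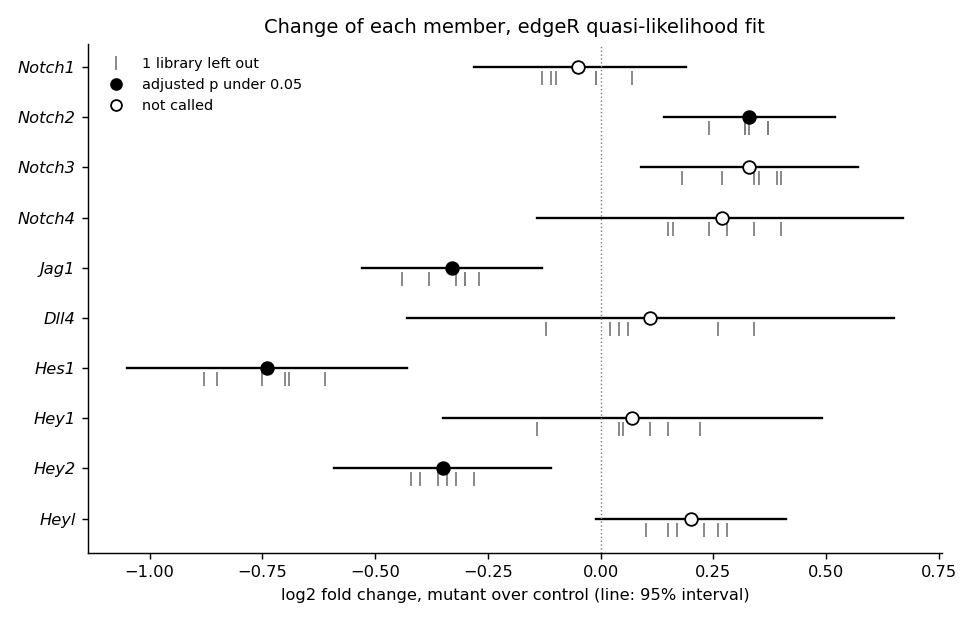
Log2 fold change of each Notch gene, mutant over control (horizontal axis), from the edgeR fit, with its 95% interval as a line. Filled circles passed an adjusted p under 0.05, open circles did not, and grey ticks are estimates with 1 library left out. The Hes1 ticks run from -0.88 to -0.61, while the ticks of Notch1, Dll4 and Hey1 lie on both sides of 0.

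Levels of different genes were compared per exon length, as RPKM (CPM per kilobase of exon). The length joined all annotated exons of a gene and can exceed that of the transcript expressed. The order of genes and their shares depend on this choice. In controls the order was Hes1 (28.9 ± 3.40 RPKM, SD, n = 3), Notch2 (26.7 ± 2.92), Notch3 (26.6 ± 1.70), Heyl (20.9 ± 1.91), Jag1 (20.4 ± 1.14), Notch1 (13.0 ± 1.82), Hey1 (12 ± 3.11), Hey2 (4.74 ± 0.337), Dll4 (1.33 ± 0.230) and Notch4 (0.587 ± 0.101). The libraries of Hes1, Notch2 and Notch3 overlapped from each gene to the next, as did those of Heyl and Jag1 and those of Notch1 and Hey1. In mutants Notch2 (33.5 ± 0.248 RPKM) and Notch3 (33.5 ± 5.59) led, followed by Heyl (24.1 ± 2.86), Hes1 (17.2 ± 3.21), Jag1 (16.2 ± 1.99), Hey1 (12.6 ± 0.751), Notch1 (12.5 ± 1.3), Hey2 (3.73 ± 0.355), Dll4 (1.44 ± 0.484) and Notch4 (0.701 ± 0.0880). There the libraries of Notch2 and Notch3, of Hes1 and Jag1 and of Hey1 and Notch1 overlapped, and those of Heyl and Hes1 did not. Hes1 thus led without separation from Notch2 in controls, and lay below Heyl and overlapping with Jag1 in mutants.

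Within the receptor family, Notch2 and Notch3 together made up most of the summed RPKM in every library. Notch2 took 41.7%, 39.3% and 38.5% in controls and 43.7%, 44.1% and 38.0% in mutants, and Notch3 took 40.3%, 38.7% and 40.8% in controls and 39.9%, 39.6% and 45.2% in mutants. The Notch1 share was 17.3%, 21.1% and 19.7% in controls and lower, at 15.5%, 15.5% and 15.9%, in every mutant library, while the Notch4 share stayed between 0.730% and 0.975%. Summed over the 4 receptors, RPKM was 68.5, 71.5 and 60.5 in controls and 75.9, 76.3 and 88.3 in mutants.

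Among Hes1 and the Hey genes, the share of Hes1 was 42.9%, 44.3% and 42.9% of the summed RPKM in controls and 31.0%, 26.6% and 31.6% in mutants. Heyl took 33.9%, 28.7% and 32.1% in controls and 40.7%, 42.1% and 42.5% in mutants. By this measure Hes1 was the most abundant of the 4 in each control library, and Heyl in each mutant library. The summed RPKM of the 4 genes overlapped between groups, at 58.1, 69.4 and 72 in controls and 55.8, 52.5 and 64.4 in mutants. Shares within a family were not tested, since the change of 1 gene moves the shares of the others.

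**Figure D3:**
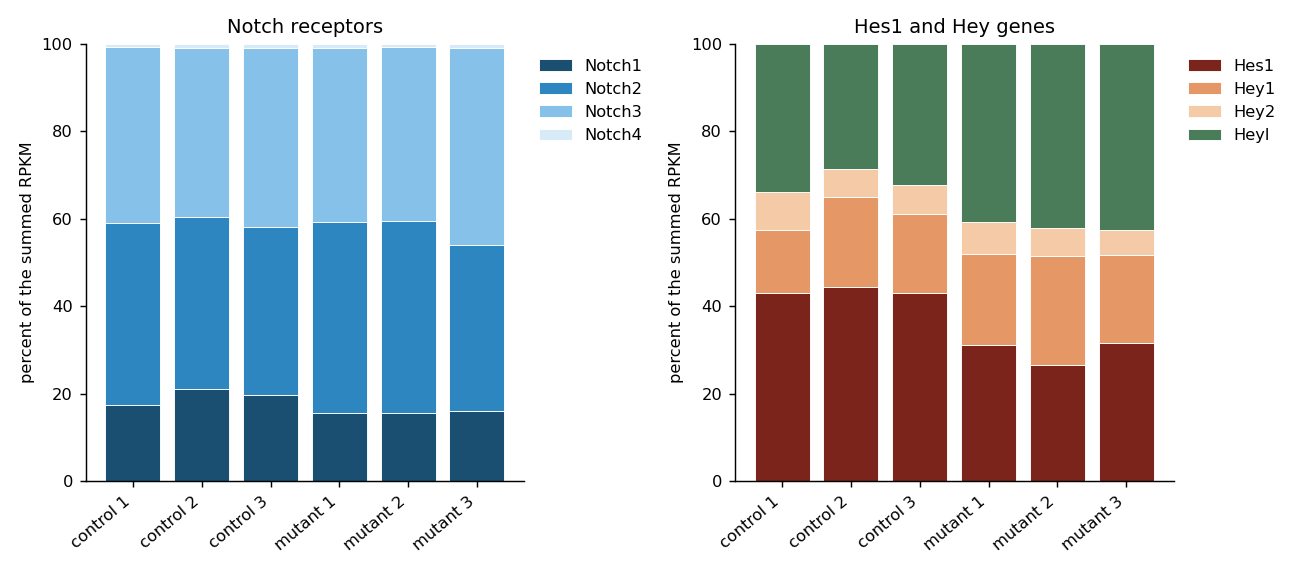
Share of each gene in the summed RPKM (vertical axis, percent) of the 4 Notch receptors (left) and of Hes1 and the 3 Hey genes (right), with 1 bar for each of the 6 libraries. The Hes1 share is 42.9% to 44.3% in the controls and 26.6% to 31.6% in the mutants.

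Beyond these 10 genes, 79 other genes of the pathway were found in the files and 74 were tested. Of these, 7 rose, 2 fell and 65 were not called, a share of 12.2% called against 17.8% of all tested genes. Their median absolute log2 fold change was 0.16, and their signed median 0.01.

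Of the other ligand genes, 1 of 5 tested rose and none fell. This count and that for ligand endocytosis stand against 8.63% of all tested genes called higher and 9.13% called lower. Dlk1, a non-canonical ligand-like protein of preadipocytes that lacks the domain by which Delta and Jagged proteins bind Notch, rose from 1205.8 ± 214 CPM in controls (SD, n = 3) to 3090.5 ± 231 CPM, a log2 fold change of 1.36 (edgeR adjusted p = 8.4e-05). Dll1, a canonical Delta ligand chosen after its values were seen, had 25.8, 62.1 and 48.6 CPM in controls and 67.9, 55.8 and 79.6 CPM in mutants, with control replicate 1 again the lowest library (edgeR adjusted p = 0.336). Among 6 genes for ligand endocytosis, the step by which the sending cell pulls on the receptor, 1 rose and none fell. It was Neurl1a, a ubiquitin ligase, at 6.10 ± 0.818 CPM in controls against 9.38 ± 1.94 CPM (log2 fold change 0.61, adjusted p = 0.0329). It did not pass with limma-voom, nor with control 2, control 3 or mutant 1 left out (up to 0.140).

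Calls among receptor-modifying enzymes stand against 17.8% of all tested genes called in either direction. Of 6 genes for glycosylation, which tunes the preference of Notch for Delta or Jagged ligands, 1 rose and none fell. Mfng, the Manic fringe glycosyltransferase, had 0.768, 0.923 and 1.28 CPM in controls and 2.15, 3.51 and 2.64 CPM in mutants, a low level at which every mutant library exceeded every control (log2 fold change 1.47, 95% interval 0.81 to 2.12, edgeR adjusted p = 0.00734). Of 10 genes for receptor cleavage 2 rose and none fell. Furin, the protease that cuts the receptor on its way to the surface, rose from 153.3 ± 2.66 to 185.5 ± 5.40 CPM (log2 fold change 0.28, adjusted p = 0.0170), and did not pass when control 2, control 3, mutant 1 or mutant 2 was left out (up to 0.0540). Psen2, a catalytic subunit of gamma-secretase, had an adjusted p of 0.0497 (17.8 ± 0.610 and 22.2 ± 1.91 CPM) and lost its call in 12 of 15 alternatives.

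In the nucleus, 1 of 9 genes of the activating complex rose and none fell. This count and those for corepressors and turnover stand against 8.63% of all tested genes called higher and 9.13% called lower. Maml3, a Mastermind coactivator, rose from 15.9 ± 1.34 to 23.1 ± 2.00 CPM, a log2 fold change of 0.54 (edgeR adjusted p = 0.0072). Rbpj itself, chosen after its values were seen, had 108.2 ± 6.92 and 112.2 ± 3.51 CPM (log2 fold change 0.05, adjusted p = 0.664). Among 13 tested corepressor genes 1 fell and none rose. Tle2, a Groucho-type corepressor that Hes proteins recruit, fell from 59.7 ± 5.88 to 48.4 ± 1.91 CPM (log2 fold change -0.30, adjusted p = 0.0306) but did not pass when control 1 or any 1 mutant library was left out (up to 0.0815). Of 12 genes for inhibition and turnover, 1 fell and none rose. Itch, a ubiquitin ligase that acts on Notch and on other proteins, fell from 99.3 ± 7.10 to 78.5 ± 3.60 CPM (log2 fold change -0.34, adjusted p = 0.0128). It did not pass when control 3 or mutant 3 was left out (up to 0.0600).

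Of 4 tested genes in the list of other Hes and related repressors, 1 rose and none fell. Over all tested genes, 8.63% were called higher and 9.13% lower. Hes6, which encodes an antagonist of Hes1 that is not induced by Notch, had 12.4, 13.8 and 13.1 CPM in controls and 18.7, 17.2 and 17.8 CPM in mutants, a log2 fold change of 0.46 (edgeR adjusted p = 0.0131). The groups did not overlap, in the opposite direction to Hes1. Hes2, Hes3 and Hes7 were too low to be tested, at no more than 0.715 CPM in any library. Among 9 further reported targets 0 were called by edgeR, where 1 had an unadjusted p under 0.05, while DESeq2 called 2 and limma-voom called 2. Of their estimates 8 lay below 0, with a median log2 fold change of -0.35, against 0.01 over all tested genes. The list shares Acta2, Myh11 and Tagln with the smooth muscle markers, whose median was -0.51. It also shares Efnb2 with the arterial and Pdgfrb with the pericyte markers, so it is not a separate reading of Notch targets. Acta2, the smooth muscle actin and the most abundant of these targets, had 370.0, 269.4 and 285.8 CPM in controls and 231.5, 170.3 and 279.3 CPM in mutants (adjusted p = 0.205). Efnb2, an arterial ephrin, and Nrarp, a feedback inhibitor that Notch induces, were chosen after their values were seen. Efnb2 had 204.0 ± 30.9 and 150.2 ± 23.2 CPM, a log2 fold change of -0.44 (edgeR adjusted p = 0.0595). Nrarp had 16.7, 17.2 and 16.8 CPM in controls and 13.3, 7.61 and 14.3 CPM in mutants (-0.52, adjusted p = 0.104). Efnb2 was called by DESeq2 (adjusted p = 0.00487) and by limma-voom (0.0435). Neither gene was called by edgeR, although each mutant library of Nrarp was below each control. Calls of Dlk1, Mfng, Maml3 and Hes6 were kept in all 15 alternatives.

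**Figure D4:**
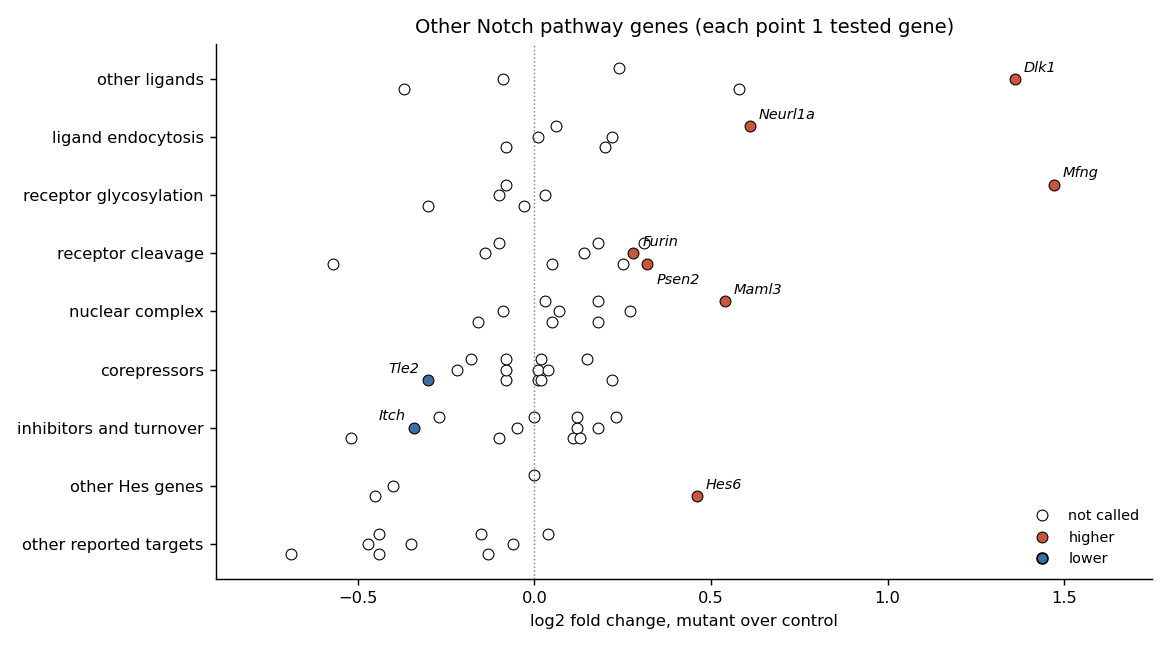
Log2 fold change, mutant over control (horizontal axis), of the 74 other tested Notch pathway genes, in 9 lists (vertical axis). Each point is a gene, red if called higher, blue if called lower and open if not called, and vertical offsets within a list only separate the points. The called genes are named, and Dlk1 and Mfng lie farthest to the right at 1.36 and 1.47.

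Several members belong to cell types that the sort could hold, and marker levels of some of these types differed between groups. In bulk RNA, fewer cells of a type and less RNA per cell cannot be told apart. The counts of called markers stand against 8.63% of all tested genes called higher and 9.13% called lower. Markers given as most abundant, or as leading a sum, are named whether called or not. Of 18 endothelial markers 7 were higher and none lower, and their summed level was 368.4 to 424.5 CPM in controls and 478.6 to 638.6 CPM in mutants, with Sox18 and Eng as the most abundant. Of 7 tested arterial markers 2 were higher (Gja4 and Unc5b) and none lower, with sums of 550.5 to 730.1 and 584.8 to 611.3 CPM. The most abundant arterial markers, Nrp1 and Efnb2, were not called by edgeR (log2 fold change -0.31 and -0.44). Of 4 lymphatic markers 1 was higher (Lyve1), with sums of 52.9 to 63.3 and 85 to 103.5 CPM, led by Pdpn and Lyve1. Of 12 pericyte markers other than Notch3, 2 were higher (Kcnj8 and Abcc9) and none lower, with sums of 1055.4 to 1383.4 and 985.2 to 1208.5 CPM. The most abundant pericyte markers, Rgs5 and Pdgfrb, were not called (log2 fold change -0.72 and -0.06). Of 13 smooth muscle markers 4 were lower and none higher (1567.2 to 2073.7 and 1004.7 to 1345.9 CPM, led by Tpm1 and Acta2).

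A ratio of a Notch gene to a marker list moves with either part, and the summed markers themselves differed between mutants and controls by 0.46 (endothelial), -0.08 (pericyte) and -0.52 (smooth muscle) on the log2 scale. As a percentage of the summed endothelial CPM, Hes1 was 13.1, 14.7 and 17.1 in controls and 6.86, 5.94 and 6.50 in mutants, a log2 difference of -1.21. Jag1 was 28.7, 29.3 and 32.8 against 17.3, 18.1 and 16.9 (-0.79), and Notch1 was 43.5, 50.5 and 46.1 against 32.6, 35.2 and 31.3 (-0.50). For Notch1, whose own estimate was -0.05, the difference in the ratio is nearly that of the endothelial sum. For Jag1, whose own estimate was -0.33, that sum makes up the larger part of the difference. In controls Notch1 (mean 184.5 CPM) and Jag1 (118.9 CPM) were above the most abundant endothelial markers Eng (91.9 CPM) and Sox18 (82.1 CPM), without regard to gene length. What part of the Notch1 and Jag1 RNA was endothelial was not tested, so these ratios are not levels per endothelial cell. The endothelial ratios of Notch4, Dll4 and Hey1 overlapped between groups, with log2 differences of -0.20, -0.39 and -0.36. Notch3 as a percentage of the pericyte markers was 16.1, 21.2 and 17.9 in controls and 21.4, 24.8 and 26.7 in mutants (log2 difference 0.40, and 0.17 against the geometric mean of the markers). Against smooth muscle markers the log2 difference was 0.84 for Notch3 and 0.72 for Heyl, without overlap, and 0.17 for Hey2, with overlap. The lower smooth muscle sum makes up most of the difference for Notch3 (own estimate 0.33) and for Heyl (own estimate 0.20). Hey2 itself was lower (own estimate -0.35), so the direction of its ratio comes from that sum. Hey2 was lower relative to the pericyte markers (-0.26, and -0.49 against their geometric mean), and Heyl gave 0.28 (0.05 against the geometric mean). Exact two-sided permutation of 3 against 3 libraries cannot go below p = 0.1, which was the value of each ratio without overlap, 0.171 after adjustment over the 12 ratios, so none passed.

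**Figure D5:**
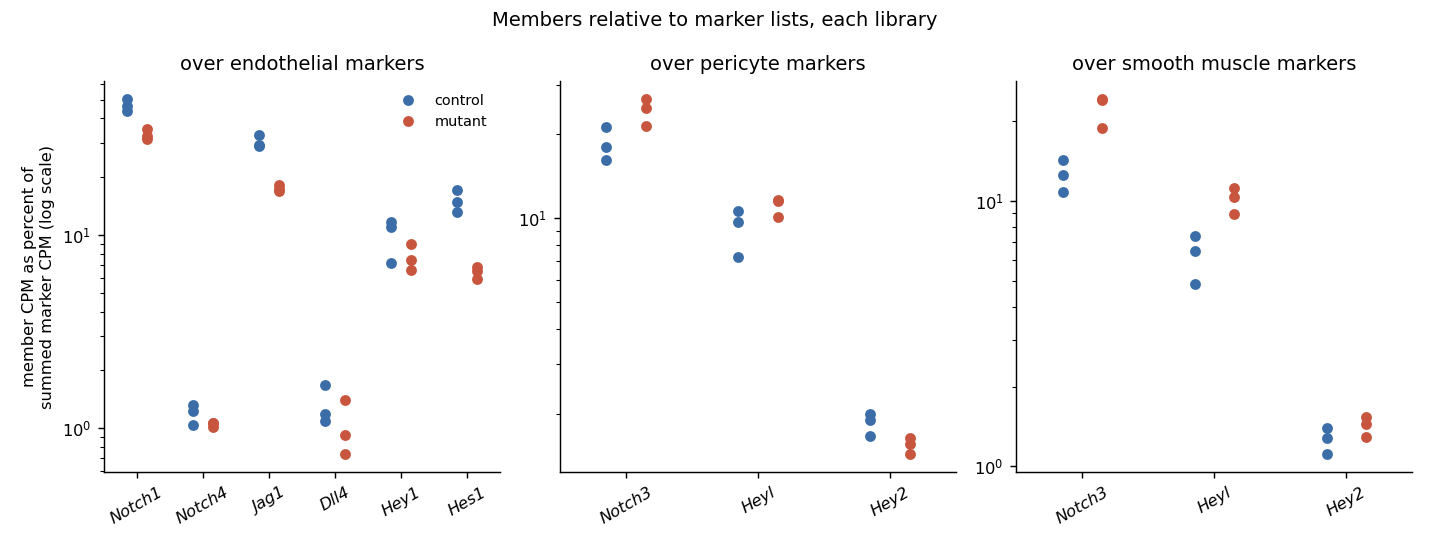
CPM of Notch genes as a percentage of the summed CPM of endothelial (left), pericyte (middle) and smooth muscle markers (right), on log axes that differ between panels, for 3 control (blue) and 3 mutant (red) libraries. Hes1, Jag1 and Notch1 are lower in each mutant library over endothelial markers, whose own sum is higher in mutants. Notch3 is higher over smooth muscle markers, whose sum is lower in mutants. It is higher over pericyte markers by a small margin (21.2% in control replicate 2, 21.4% in mutant replicate 1).

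Other lists also bear on genes that many cell types express, and their calls stand against the same 8.63% higher and 9.13% lower. The genes named with each list are again the most abundant, called or not. Counts of higher and lower calls and the summed CPM in controls and mutants were 8 and 0 of 12 for skeletal muscle and satellite cells (106.6 to 125.3 and 228.9 to 335.0, led by Actc1 and Myog), 4 and 0 of 9 for keratinocytes (502.5 to 789.9 and 928.5 to 1164.8, Krt5 and Krt14) and 1 and 0 of 8 for adipocytes (562.5 to 766.8 and 783.3 to 1497.2, Lpl and Fabp4). They were 2 and 2 of 12 for fibroblasts (119368.9 to 134830.4 and 104616.5 to 124879.1, Col3a1 and Col1a1), 3 and 2 of 6 for mast cells (81.5 to 98.5 and 106.0 to 125.0, Kit and Cma1) and 0 and 0 of 7 for macrophages (165.2 to 260.7 and 209.2 to 248.6, Mrc1 and Csf1r), where 1 macrophage marker had an unadjusted p under 0.05 and DESeq2 and limma-voom called 0. The lower fibroblast markers were Dpp4 and Pdgfra, and the Pdgfra allele itself differs between the groups, so Pdgfra is not a plain cell type marker here. Melanocytes gave 0 and 1 of 6 (244.1 to 376.2 and 137.0 to 262.2, Dct and Pmel) and erythroid cells 0 and 0 of 1 (0.897 to 1.93 and 2.47 to 7.18, Hba-a1 and Hba-a2). Genes of the dissociation response gave 1 and 2 of 10 (5394.2 to 8725.8 and 9844.8 to 11260.4, Jun and Fos). Mutant replicate 2 held the highest adipocyte sum (1497.2 CPM) and the lowest smooth muscle (1004.7 CPM) and melanocyte (137.0 CPM) sums. It was also the lowest library for Hes1, Jag1, Hey2 and Dll4, but not for the other Notch genes. Satellite cells, keratinocytes and fibroblasts express Notch receptors and Hes1 as well, and the part of these cell types and of dissociation in the values of the 10 Notch genes was not tested.

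Over the 6 libraries, the genes whose log2 CPM followed a called Notch gene most closely were Ak1, Nemp1 and Mavs for Hes1 (Pearson's r 0.993, 0.992 and 0.992), Ndufv3, Marc2 and Emc8 for Notch2 (0.997, 0.997 and 0.995), E2f6 and D11Wsu47e for Jag1 (0.998 and 0.988) and Cwc22, Gins3 and Kcnk6 for Hey2 (each 0.992). They were picked as among the closest of 10886 genes over 6 libraries, so values this high follow in part from the picking. Such values mix a difference between the 2 groups with the order within them. Mavs, Marc2, Emc8, E2f6, D11Wsu47e and Cwc22 were not called between groups (edgeR adjusted p from 0.0622 to 0.281), and the other named genes were.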

How the data were processed

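RNA of Nestin-GFP-positive cells was sequenced in 6 libraries, 3 per genotype, grouped and numbered by their titles. The authors deposited read counts per Ensembl gene, 1 file per library. The submitters' processing notes name mm9 as build and, without roles, HTSeq 0.5.3, TopHat2 2.0.4, cutadapt 1.1, DESeq2 and FastQC. No source used here gives the strand setting. The 5 rows that name no gene (36.9% to 41.7% of listed reads) were left out, which left 11912469 to 18792939 gene counts per library, so that 0 counts allow up to 0.16 to 0.252 CPM (3 counts, counting error only).

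Symbols and exon lengths came from GENCODE M21 (86.6% of rows had a symbol), which is a later build than mm9, and promoter windows from RefSeq GRCm38.p6. Gucy1b3, Ccl21a, Emr1, Hbb-b1 and Hbb-b2 of the lists matched no row. edgeR 4.0.16 (R 4.3.3) fitted all genes with TMM scaling, filterByExpr (minimum count 10, total 15) and a robust quasi-likelihood F test on group alone. Calls needed a Benjamini-Hochberg adjusted p under 0.05, and log2 CPM used a prior count of 2. The fit was tested on simulated data. No source says that libraries of a group came from separate litters or sorts, beyond 3 mice per genotype.

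The 10 genes and all lists were chosen with earlier results of these data known. Named by rule were the 10 genes, up to 4 called genes per pathway list (otherwise its most abundant), the 2 most abundant genes per marker list, the 3 genes most alike to each of the 4 Notch genes with the smallest p (mean of at least 5 CPM), and Pdgfra, Pdgfrb and Nes. A marker list and 1 of the most alike genes are not reported here. Alternatives were other scalings, filters and tools (DESeq2 1.42.0, limma-voom 3.58.1), a non-robust fit, a replicate block and each library left out. Ratios to marker lists were tested by exact permutation (SciPy 1.17.1).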

Additional observations from a re-analysis of the deposited data

How the results depend on the processing

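Among the 10 Notch genes, Hes1 was called lower in all 15 alternatives, and Notch2, Jag1 and Hey2 kept their direction but not always their call. The number of these genes called higher was 2 with no filter and 2 with DESeq2, in place of 1, and 0 to 1 with 1 library left out. The number called lower was 1 to 2, in place of 3, with 1 library left out. Of the other pathway genes, 4 to 6 were higher with 1 library left out, in place of 7, and 0 to 4 were lower, in place of 2. With no filter, limma-voom and the non-robust fit 4 were lower each, and with DESeq2 5 were lower. Over all genes, 1411 to 2699 were called with 1 library left out, in place of 2670, with 658 to 1199 higher and 753 to 1500 lower. Fits without a library have fewer samples, and the lowest totals came without control replicate 2 or 3 or mutant replicate 3 (1657, 1486 and 1411). The estimates of Notch1 (-0.13 to 0.07), Dll4 (-0.12 to 0.34) and Hey1 (-0.14 to 0.22) changed sign with 1 library left out, and the cause was not tested.

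Titles number both groups 1 to 3, but no source says that a number marks a shared litter or day, and the deposited files number the mutants 2 to 4. Deviations from the group means correlated at 0.117, -0.029 and -0.087 between same-numbered libraries, and not every library correlated best with its own number, so the libraries were not taken as paired. By the numbers of the files, the pairs would be control 2 with mutant 1 (-0.057) and control 3 with mutant 2 (0.158), and the block used the titles. With the replicate block 2767 genes were called, and of the Notch genes again 1 higher and 3 lower. Notch4 and Dll4 rest on 54 to 122 reads per library. Their intervals, and that of Hey1 with 432 to 797 reads, leave changes in both directions possible.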
